A study of Mus musculus with 8 samples.

Results

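Zinc finger genes with the mouse symbol prefix Zfp were examined across 4 lists of m6A peaks from gastrocnemius, a calf muscle. The genes were taken by name: a gene was kept if its listed name began with Zfp and a number and if it held a peak in at least 2 of the 4 lists. The set came to 195 of 4815 genes found in 2 or more lists, and the remaining 4620 served for comparison. In RefSeq 2 of the 195 are not protein coding: Zfp862-ps, a transcribed pseudogene, and Zfp91Cntf, a long noncoding RNA entry. The 2 regions of Zfp91Cntf are also those of Zfp91, so this locus counts under 2 names, both called in all 4 lists. In all, 232 Zfp genes held a peak in at least 1 list, among 5987 genes of any name. Of the 37 that were called in 1 list alone and so fell outside the set, 19 were in innervated replicate 2, 13 in denervated replicate 2, 4 in innervated replicate 1 and 1 in denervated replicate 1.

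The muscles came from male C57BL/6 mice of 10 weeks. The denervated group had been without its nerve for 14 days, and the innervated group was the muscle of the opposite leg, labelled untreated, so it came from operated animals and not from intact ones. Each group had 2 immunoprecipitated (IP) libraries, made by capture of RNA with an antibody against N6-methyladenosine (m6A), and 2 input libraries of uncaptured RNA. Nothing in the labels says that the replicates were separate animals, so the p-values and SDs cover no more than the spread among these libraries, part of which may be technical. List lengths ran from 9327 peaks in innervated replicate 1 to 10299 in innervated replicate 2. Read counts were not analysed here, so depth and transcript levels are unknown. A transcript that is absent or poorly covered cannot be told apart from one without m6A, nor can fewer cells of a type from less RNA per cell.

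Most Zfp genes encode proteins with C2H2 zinc fingers, small domains in which cysteines and histidines hold a zinc ion and which bind DNA in tandem arrays. Many also carry a KRAB domain, which recruits the corepressor TRIM28 and silences retroelements and other targets. A few, the Zfp36 family, have CCCH fingers and bind AU-rich elements in mRNA, which leads to mRNA decay. m6A is placed on mRNA by the METTL3 and METTL14 methyltransferase complex, mostly in long internal exons and in last exons around the stop codon.

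The Zfp name was common among the peak lists. Of 397 protein-coding genes with such a symbol in the RefSeq table of GRCm38.p6, 236 (59.4%) had a peak in at least 1 list, against 25.8% of the 21503 other protein-coding genes. For a peak in at least 2 lists the shares were 49.6% and 20.8%. These counts go by RefSeq symbol and so include genes that the lists gave under another name, 4 of them among those in at least 2 lists. How many of the annotated genes were transcribed in this muscle was not measured. Zfp genes supplied 5.60% and 5.89% of all peaks in innervated replicates 1 and 2 and 5.30% and 6.04% in denervated replicates 1 and 2. The groups overlapped, with means of 5.75% ± 0.210 and 5.67% ± 0.524 (SD, n = 2 lists per group, two-sided exact permutation p = 1, where 2 against 2 lists cannot go below 0.333).

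An annotated transcript start lay inside a peak in some members, and sequence was taken for these stretches alone. RefSeq start sites of GRCm38.p6 were matched for 163 members, some with several sites (200 in all), and not every site is the 5′ end of its gene. The first 30 bases from such a site lay wholly inside a peak block in 10 of the members. This count is given for members alone, with no share for other genes, so it cannot be called low or high. That was so in all 4 lists for Zfp768, a C2H2 gene, and in 2 lists for 5 genes: Zfp36, Zfp36l1, Zfp445, Zfp866 and Zfp871. Zfp768 is shown because its peaks reached the start site in every list, and Zfp36, Zfp36l1 and Zfp445 because their proteins have known roles. This choice was made with the values in view. The stretches are chr7:127345285-127345314 for Zfp768, chr7:28379199-28379228 for Zfp36, chr12:80112984-80113013 for Zfp36l1 and chr9:122865977-122866006 for Zfp445, all on the minus strand. Those of Zfp768, Zfp36 and Zfp36l1 lie at the 5′ end of the gene span. That of Zfp445 is an internal start site, since the 5′ end of its gene span is at 122886851. They are written 5′ to 3′, with the letters AAC or GAC, which form the core of the m6A consensus, in capitals.
Zfp768: ctcggggctccaggcactcgAACtgggtcg
Zfp36: cggtctcttcaccaaggccattcgcgccac
Zfp36l1: gggagagtcagaaaggcgaggggcgccggg
Zfp445: gtacttccgctctcgcagagaggcccgcgg
Of these, the Zfp768 stretch held a core, AAC, and the others held none. Of all 11 start windows inside a peak, in 10 genes, 4 held a core (36.4%). Of 32851 such 30-base windows in the whole RefSeq table, 50.9% held AAC or GAC on the transcribed strand, and 78.7% on either strand. The peak at the Zfp36 start was in innervated replicate 1 and denervated replicate 2, that of Zfp445 in innervated replicate 2 and denervated replicate 1, and that of Zfp36l1 in both denervated lists and neither innervated list. Peaks overlapping on a strand by 1 base or more were linked into regions. The region that reached the start was called in all 4 lists for each of these 4 genes, so the lists differed in whether a peak within it covered the start.

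Zfp genes were called in every list somewhat more often than other genes. Of the 195, 135 held a peak in all 4 lists, which is 69.2%, against 2789 of 4620 other genes (60.4%) and 60.7% of all genes with a peak in at least 2 lists. A further 33 Zfp genes (16.9%) were in 3 lists and 27 (13.8%) in 2, against 20.7% and 18.9% of other genes. The 3 CCCH genes were all in all 4 lists, and without them the share was 132 of 192 (68.8%). These are counts over genes and were not tested. The Zfp share minus that of other genes was 8.86 percentage points. It was 0.67 points when each list was cut to the 50% of peaks with the smallest scores, and -2.57 points with the 50% with the largest scores.

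**Figure D1:**
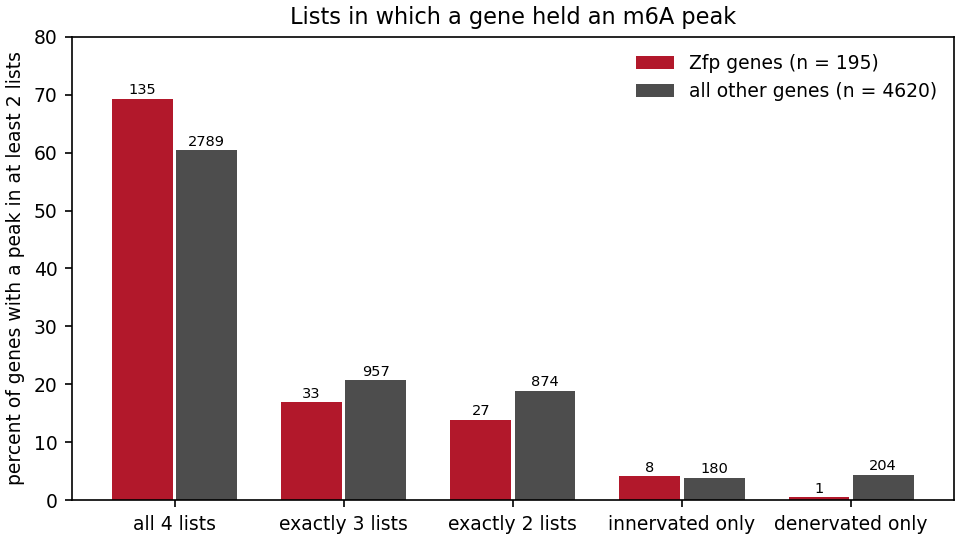
Percent of genes with a peak in at least 2 lists that were called in all 4, exactly 3 or exactly 2 lists, and, as parts of the last group, in the innervated or denervated lists alone, for 195 Zfp genes (red) and 4620 other genes (grey). Numbers above the bars are genes; 135 Zfp genes were in all 4 lists, 8 were innervated only and 1 was denervated only.

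Being called in all 4 lists went with the number of peaks a gene held. Genes were classed by their largest number of peaks in any list. A gene called in more lists has more chances of a large number, so part of this trend is built into the measure. Among genes with at most 1 peak in any list, 3 of 13 Zfp genes (23.1%) and 44.5% of 1281 other genes were in all 4 lists. Where the largest number was 2 the shares were 61.7% and 57.7%, and where it was 3 they were 59.5% and 67.1%. With 4 they were 83.7% and 71.4%, and with 5 or more 81.8% and 81.6%. So the order of Zfp and other genes changed from class to class. Zfp genes were unevenly spread over these classes: 28.2% of them reached 5 or more peaks in a list, against 12.6% of other genes.

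Called Zfp genes held more peaks than other called genes in every list. They had 3.07 and 3.03 peaks per gene in innervated replicates 1 and 2 and 3.11 and 3.16 in denervated replicates 1 and 2. Other genes had 2.25, 2.23, 2.15 and 2.23 in the same order. No value of the Zfp genes overlapped one of the other genes. The difference was 0.876 ± 0.0797 peaks per gene (SD, n = 4 lists), higher in 4 of 4 lists. A two-sided exact sign-flip permutation test over the 4 lists gave p = 0.125, the smallest it can give, and the lists share genes and are thus not independent. Only 16.7%, 19.7%, 15.1% and 14.6% of called Zfp genes had 1 peak, against 41.6%, 41.3%, 44.2% and 42.9% of other genes. Between the groups of muscles, Zfp genes had 3.05 ± 0.0237 peaks per gene when innervated and 3.14 ± 0.0391 when denervated (SD, n = 2). The groups did not overlap, but the exact permutation p of 0.333 is the smallest this design allows. Other genes did not overlap between the groups either, in the opposite direction. They had 2.250 and 2.233 peaks per gene in innervated replicates 1 and 2 and 2.153 and 2.231 in denervated replicates 1 and 2.

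**Figure D2:**
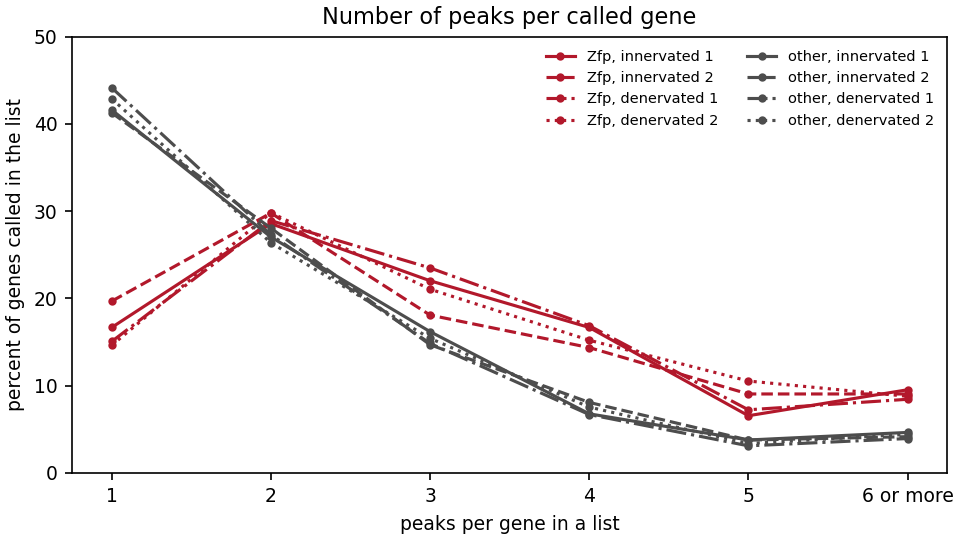
Percent of the genes called in a list (vertical axis) that held 1 to 6 or more peaks in it (horizontal axis), for Zfp genes (red) and other genes (grey), with a line style for each IP library. In every list 2 peaks was the most frequent number for Zfp genes and 1 peak the most frequent for other genes.

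Zfp peaks lay upstream of the very end of the gene, where peaks of other genes were most frequent. Position was measured from the middle of the peak along the RefSeq gene span, introns included. The last 5% of the span held 9.13% and 10.0% of Zfp peaks in innervated replicates 1 and 2 and 9.69% and 8.32% in denervated replicates 1 and 2. For other genes these were 28.0%, 28.2%, 27.9% and 25.5%. From 80% to 85% of the span the order was the opposite: 12.2%, 11.9%, 13.4% and 11.8% of Zfp peaks lay there, against 5.97%, 6.32%, 6.47% and 6.61% of other peaks.

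**Figure D3:**
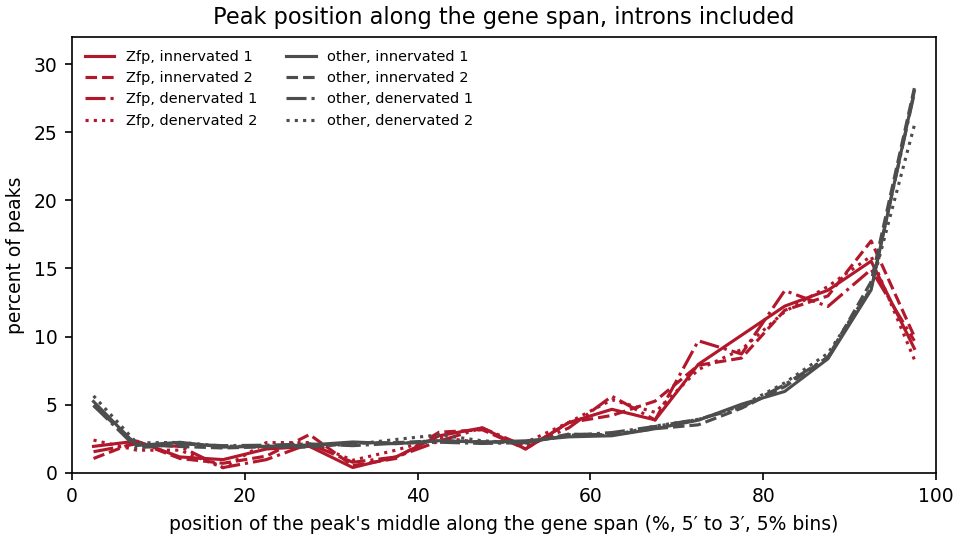
Percent of peaks (vertical axis) in 5% bins of the gene span from 5′ to 3′ (horizontal axis), for Zfp genes (red) and other genes (grey), with a line style for each IP library. Zfp peaks were most frequent from 90% to 95% of the span and other peaks in the last 5%.

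Because the spans of called Zfp genes were shorter, with a median of 17322 ± 615 against 25664 ± 437 bases (SD, n = 4 lists), the ends were also measured in bases. The last 500 bases held 4.08%, 4.39%, 3.88% and 3.33% of Zfp peaks and 8.59%, 9.31%, 8.75% and 8.08% of other peaks, in the order innervated 1 and 2, denervated 1 and 2. The first 500 bases held 1.36%, 0.702%, 0.969% and 1.48% of Zfp peaks and 3.90%, 3.67%, 3.55% and 4.45% of other peaks. Both ends thus held a smaller share of Zfp peaks in 4 of 4 lists (exact sign-flip permutation p = 0.125 each). The median distance from the 3′ end was 3400 ± 161 bases for Zfp peaks and 3210 ± 146 for other peaks (SD, n = 4). The exons and UTRs under the peaks were not used here. The median position of Zfp peaks was 80.4% ± 0.239 of the span in innervated and 80.02% ± 0.247 in denervated muscle (SD, n = 2, exact permutation p = 0.333).

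Peaks of the same gene covered a shorter stretch in Zfp genes than in other genes. The stretch was counted in genomic bases, introns included, and was not scaled to the gene span. That span was itself shorter in Zfp genes, with a median of 17322 against 25664 bases. In genes with at least 2 peaks in a list, the stretch from the first to the last peak had a median of 2044 and 1949 bases in innervated replicates 1 and 2 and 1996 and 2161 bases in denervated replicates 1 and 2. For other genes it was 2939, 3194, 3142 and 3649 bases, above the Zfp value in each list (exact sign-flip permutation p = 0.125). The mean difference of -1194 bases shrank to -256 among peaks of 1 block alone and to -114 with the 50% smallest scores. Peaks that spanned an intron made up 5.83%, 6.32%, 7.56% and 10.4% of Zfp peaks and 11.9%, 13.1%, 11.8% and 15.3% of other peaks in the same order of lists. The summed block length of Zfp peaks had a median of 201, 249, 201 and 250 bases, against 250 to 251 bases for other peaks. In innervated 1 and denervated 1 Zfp peaks were thus shorter by 49 and 50 bases, and in innervated 2 and denervated 2 by 2 and 1. The mean difference from other genes was -25.5 ± 27.7 bases (SD, n = 4). It ran from -32 to -47.7 when a list was left out. It was -47 when every list was cut to the same length and -61.3 with the 50% smallest scores. Both gene sets were taken anew in each of these runs, so the range is not a spread of the per-list differences above. The innervated mean was 225 ± 33.9 and the denervated mean 226 ± 34.6 bases (SD, n = 2, exact permutation p = 1).

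**Figure D4:**
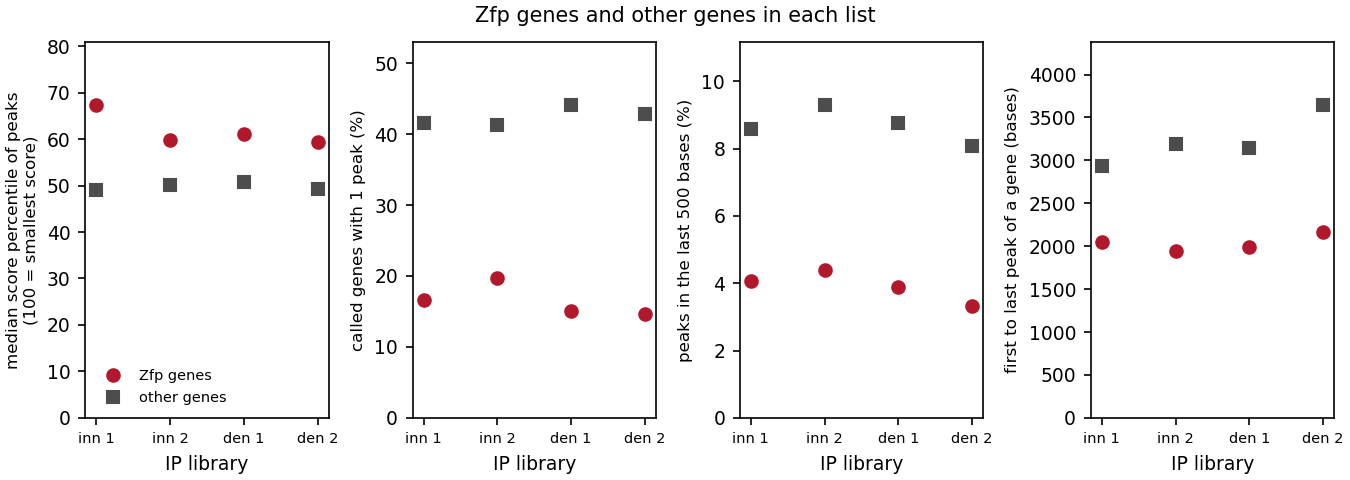
Values in each IP library (inn, innervated; den, denervated) for Zfp genes (red circles) and other genes (grey squares): median score percentile of peaks, percent of called genes with 1 peak, percent of peaks in the last 500 bases of the gene span, and median stretch in bases from the first to the last peak of a gene. The markers of the gene sets do not overlap in any panel.

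The score that the authors gave each peak, from 0 to 0.023, served only to rank peaks inside their own list; the percentile counts upward to 100 for the lowest score. What it measures is not given in the sources used here. Zfp peaks stood on the side of small scores. Their median percentile was 67.4 and 59.8 in innervated replicates 1 and 2 and 61.1 and 59.3 in denervated replicates 1 and 2, against 49.0, 50.2, 50.7 and 49.4 for other peaks. The difference was 12.1 ± 4.23 (SD, n = 4 lists), in the same direction in 4 of 4 lists (exact sign-flip permutation p = 0.125). It was 5.70 when lists were cut to the 50% smallest scores and 0.35 with the 50% largest (exact sign-flip permutation p = 0.875). With 1 value per gene, that of its best peak, the medians were 66.9, 60.4, 61.8 and 62.0 for Zfp genes and 53.0, 53.3, 55.4 and 50.3 for other genes. Peaks of a gene often shared a score: of Zfp genes with at least 2 peaks in a list, 64.5% to 83.6% had the same score for all of them. Among other genes with at least 2 peaks this was 55.5% to 69.3%. Within the set, the rank of a gene varied between lists; the best peak of Zfp768 stood at 99.4, 14.4, 97.4 and 84.2 in innervated 1 and 2 and denervated 1 and 2.

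The Zfp genes with most regions called in all 4 lists included transcription regulators with long coding sequences. Zfp292, a large nuclear zinc finger protein, had 12, 12, 11 and 14 peaks in innervated 1 and 2 and denervated 1 and 2. Its 8 regions called in all 4 lists lay within 6934 bases of the minus strand, chr4:34804956-34811889. Zfp407, a regulator of insulin-stimulated glucose uptake in adipocytes, had 7, 10, 11 and 10 peaks, with 6 shared regions. Its peaks differed in place, with a median position of 7.74% of the span. Zfp865 had 6, 7, 7 and 7 peaks and 6 shared regions. Zfp318, which controls transcription through the immunoglobulin locus in B cells, had 8, 8, 7 and 8 peaks and 5 shared regions. Over all 195 genes, the total over the lists ran from 2 to 49 peaks with a median of 10.0, and 133 genes held a region called in all 4 lists. Zfp52 and Zfp959 were called in all 4 lists without such a region.

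Of the adipocyte-linked members, Zfp516, an activator of the brown fat gene Ucp1, had 8, 6, 6 and 7 peaks and 4 shared regions, and Zfp521 and Zfp467 were also called in all 4 lists. Zfp423, a determinant of preadipocytes, had 2 peaks in innervated 1 and 1 in denervated 2 and none elsewhere. Zfp217, a protein that binds METTL3 and restrains m6A deposition in stem cells, had 7, 5, 7 and 7 peaks and 4 shared regions. Its best peak stood at percentiles 17.5, 93.2, 72.4 and 63.6, so the lowest and the highest rank were both in innervated lists. Zfp281, a factor of pluripotent cells, had 5, 4, 4 and 6 peaks, and Zfp148 had 2, 2, 3 and 3. Zfp462, a large regulator of pluripotency and heterochromatin, had 8, 9 and 6 peaks in innervated 1, innervated 2 and denervated 1, and 0 in denervated 2. Zfp143, a promoter-binding factor, was in innervated 2 and denervated 1 alone.

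Of 7 genes listed for RNA binding, 4 were called in all 4 lists, 2 in 1 list and Zfp326 in none. Zfp36, which encodes tristetraprolin, had 2, 2, 2 and 1 peaks, with a best percentile of 99.8, 97.6, 99.4 and 57.4; denervated replicate 2 stood apart from the other lists. Zfp36l1 had 3, 4, 2 and 3 peaks and Zfp36l2 had 2, 1, 2 and 2. Zfp697, an RNA-binding regulator of skeletal muscle remodelling, had 2, 4, 5 and 3. Zfp106, whose loss causes neuromuscular degeneration in mice, had 6 peaks in denervated replicate 2 and 0 in the other lists. The same held for Zfp638, an adipogenic factor, with 5 peaks. Both are outside the 195 genes for that reason. Of 6 genes known for silencing of retroelements or imprinted genes, Zfp445, Zfp568, Zfp708 and Zfp809 were called in all 4 lists, and Zfp57 and Zfp932 had no peak. Among all protein-coding genes with a Zfp symbol 59.4% had a peak, and 58.2% of Zfp genes with a peak were in all 4 lists. The role lists are too small to be set apart from these shares. They were written with the results known.

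Among members called in all 4 lists, those with the highest mean percentile of the best peak were Zfp866 (95.7), Zfp3 (94.3), Zfp871 (93.3), Zfp784 (90.4) and Zfp654 (89.7). Those with the lowest were Zfp710 (7.42), Zfp52 (10.6) and Zfp146 (13.8). Zfp146 had 2 peaks in each list, in 2 regions shared by all. Over the whole set, the median of the mean best percentile was 63.0 for the 135 genes called in all 4 lists and 52.0 for the 51 genes of mixed pattern. For other genes it was 55.0 and 42.5.

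**Figure D5:**
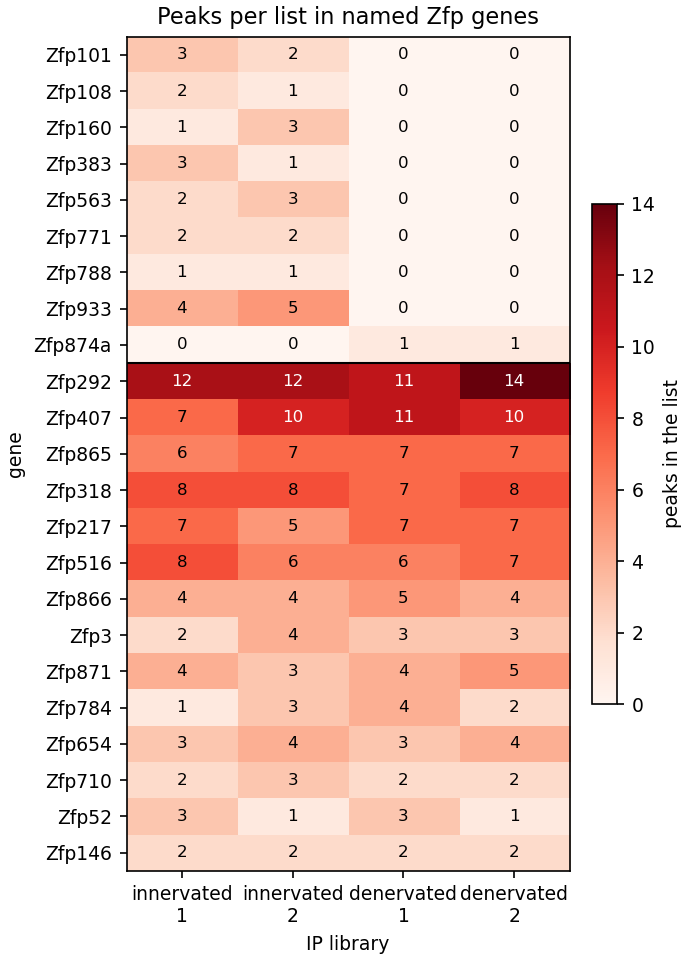
Peaks in each IP library (columns) for Zfp genes (rows), with the count in each cell and a colour scale from 0 to 14 peaks. Above the line are the 9 genes called in both lists of a group and neither of the other, and below it genes called in all 4 lists, from Zfp292 with 11 to 14 peaks per list to Zfp146 with 2.

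The comparison of denervated with innervated muscle asked which Zfp transcripts held a peak in both lists of a group and in neither list of the other. Of the 195 genes, 8 were innervated only and 1 was denervated only. As shares these were 4.10% and 0.51%, against 3.90% and 4.26% of all genes with a peak in at least 2 lists, and 3.90% and 4.42% of the other genes. The innervated-only share was thus near the background and the denervated-only share below it. Neither was tested, since genes are not replicates. The number of Zfp genes called in a list was 168 and 188 in innervated replicates 1 and 2 and 166 and 171 in denervated replicates 1 and 2. The groups overlapped (178 ± 14.1 and 169 ± 3.54, SD, n = 2, exact permutation p = 0.667). When a library was left out, the definition loosened and the counts rose among Zfp and other genes alike. Without innervated replicate 1, 27 Zfp genes were innervated only (11.8%, against 9.35% of other genes) and 3 denervated only (1.32% against 6.28%). Without innervated replicate 2 they were 12 (5.63% against 6.69%) and 13 (6.10% against 9.27%). Without denervated replicate 1 they were 16 (6.93% against 9.23%) and 14 (6.06% against 8.30%), and without denervated replicate 2 they were 19 (8.68% against 6.82%) and 2 (0.913% against 10.4%). The denervated-only share was thus below that of other genes in each case, while the innervated-only share was above it in 2 cases and below it in 2. Cut to the 50% smallest scores, the lists gave 13 innervated-only (9.92% against 7.88%) and 6 denervated-only Zfp genes (4.58% against 7.76%). Cut to the 50% largest, they gave 8 (8.25% against 8.17%) and 9 (9.28% against 8.17%), so that the denervated-only share was then above that of other genes. Of 5 endothelial markers 3, 2, 4 and 3 held a peak in innervated 1 and 2 and denervated 1 and 2, with 4, 3, 7 and 7 peaks in all. The groups thus overlapped in markers called but not in their peaks. No share over all genes stands beside these peak counts, so they cannot be set against a background. Of 5 Schwann cell markers 0, 1, 1 and 1 held a peak, with 0, 1, 3 and 2 peaks in all. Ngfr was in the denervated lists alone, as were 4.26% of all genes with a peak in at least 2 lists. Of 5 fibroadipogenic markers 2, 1, 2 and 1 held a peak. Adipocyte markers numbered 1 of 4 in each list, Pax7 was the sole satellite cell marker, in innervated 2, and macrophage and erythroid markers were at 0 of 5 in each list. None of 13 muscle fibre markers, Acta1 and Ckm among them, held a peak, so the lists do not show the tissue by those genes. Any part of cell composition in the Zfp calls was not tested.

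The innervated-only genes differed in their number of peaks and in score percentile. Zfp108 had 2 and 1 peaks in innervated replicates 1 and 2, at percentiles 99.4 and 99.3, and its common region was chr7:24262047-24262246 on the plus strand. Zfp101 had 3 and 2 peaks at 89.3 and 92.8, with the common region chr17:33380924-33381221 on the minus strand. Zfp771 had 2 peaks in each, at 78.7 and 96.3, in the regions chr7:127254064-127254260 and chr7:127254457-127254752 on the plus strand. Zfp933 had the most, 4 and 5 peaks, at 84.3 and 56.6, in 3 regions on chromosome 4 between 147825484 and 147826732. Their peaks had median positions from 88.7% to 96.1% of the gene span.

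The other innervated-only genes were Zfp160 with 1 and 3 peaks, Zfp383 with 3 and 1, Zfp563 with 2 and 3 and Zfp788 with 1 and 1. Their mean percentiles ran from 50.2 for Zfp563 to 61.6 for Zfp383. The denervated-only gene, Zfp874a, had 1 peak in each denervated list, at percentiles 39.6 and 10.8, in the region chr13:67442125-67442424 on the minus strand. The annotated span of Zfp459 overlaps that of Zfp874a by 2872 bases, and the region lies inside the overlap, so its assignment to Zfp874a is uncertain. Zfp459 itself was called in 1 list. On the other side, Zfp874b, a gene of similar name 19888 bases away, was called in innervated 2 and denervated 1. How reads that fit several near-identical copies were treated is not given in the sources used here, so calls of neighbouring Zfp copies are uncertain. With the smallest 50% of scores, Zfp383, Zfp563, Zfp788 and Zfp874a were no longer group-specific, and with the largest 50% all but Zfp563 and Zfp874a were not.

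Zfp genes lie in clusters in the genome. Chromosome 7 held 51 of the 195 genes (26.2%) and chromosome 17 held 23 (11.8%), against 6.69% and 4.78% of other genes. Of the 8 innervated-only genes, 4 were on chromosome 7, 3 on chromosome 17 and 1 on chromosome 4. The 9 group-specific genes had 17 nearest annotated Zfp neighbours, counted on either side. Of these, 7 were called in all 4 lists, 1 in 3, 1 in 2 and 2 in 1 list, 6 had no peak, and 0 were group-specific. Zfp108 had 1 of each kind close by: Zfp109, 2386 bases away, was called in all 4 lists, and Zfp93, 5538 bases away, had no peak. Zfp27 and Zfp74 on either side of Zfp383 were called in all 4 lists. For comparison, 59.4% of the 397 protein-coding genes with a Zfp symbol had a peak in at least 1 list. Of the 195 genes, 4.10% were innervated only and 0.51% denervated only, so 0 of 17 neighbours shows no contrast with the set.

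By region, the Zfp genes held 638 regions, of which 479 were called in at least 2 lists. Of these, 264 (55.1%) were called in all 4, against 51.1% of all regions called in at least 2 lists. Innervated-only regions numbered 24 (5.01%, against 6.20% of all regions) and denervated-only regions 10 (2.09%, against 5.41%). Without innervated replicate 1 there were 113 and 24, without innervated replicate 2 there were 68 and 51, without denervated replicate 1 there were 54 and 99, and without denervated replicate 2 there were 55 and 58. The innervated side was thus larger without either innervated list and smaller without either denervated list; the side short of a list needs a call in 1 list only. With reciprocal overlap of at least 50% the counts were 42 and 31. Under these alternatives regions were counted for Zfp genes alone. No share over all regions stands beside the counts, so they cannot be set against the background.

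Inside Zfp genes that were called in all 4 lists the sides were even, with 8 innervated-only and 7 denervated-only regions of 362 called in at least 2 lists (2.21% and 1.93%). Other genes called in all 4 lists had 2.72% and 1.80%. The regions of Zfp genes there were shared by all 4 lists in 72.9% of cases, against 76.1% for other genes. On the innervated side were regions of Zfp629 (chr7:127609421-127609620, mean percentile 81.1), Zfp553 (chr7:127236266-127236465, 76.6) and Zfp2 (chr11:50900255-50900604, 67.4). On the denervated side were regions of Zfp13 (chr17:23576449-23576797, 66.1), Zfp948 (chr17:21587833-21588083, 65.2) and Zfp81 (chr17:33335344-33335490, 57.8). They had the highest mean percentile on their side, and this choice was made with the values in view.

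Genes of 6 other zinc finger name families were counted in the same way. Of 34 Zbtb genes, which pair zinc fingers with a BTB domain, 27 were in all 4 lists, as were 5 of 6 Zscan, 6 of 7 Zkscan, 7 of 8 Zc3h, 2 of 5 Zmym and 3 of 4 Zfhx names, antisense entries such as Zfhx2os included. Pooled, this was 50 of 64 (78.1%), with 2 innervated only (Zbtb12 and Zc3h15) and 0 denervated only. Over all genes with a peak in at least 2 lists, 60.7% were in all 4, 3.90% innervated only and 4.26% denervated only. Among Zfp genes these shares were 69.2%, 4.10% and 0.51%. The pooled families thus stood above the Zfp genes in the share called in all 4 lists. They too had few denervated-only genes, so neither trait was particular to the Zfp name. These counts were not tested. Of 25 listed names of the silencing machinery that KRAB proteins work with, 7 held a peak (28.0%), near the 25.8% of protein-coding genes without a Zfp symbol. Daxx, Morc3, Atf7ip and Ehmt1 were in all 4 lists, Setdb1 was in 3, Atrx was innervated only and Suv39h2 was in 1 list. Trim28, the main KRAB corepressor, had no peak.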

How the data were processed

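The authors deposited 4 peak lists, each of an IP library against its own input, with a score per peak per the file headers and coordinates on mm10. STAR 2.4.2a, ChIPseeker and mm10 are named in the submitters' processing notes; neither the peak caller nor what the score means is given in the sources used here. Starts were raised by 1 to count from 1, and 1 repeated line was dropped. Peaks sharing at least 1 base on the same strand, in blocks, were linked into regions. Names were matched to RefSeq symbols of GRCm38.p6 (193 members) or older symbols (2 members). Differences between groups were tested by exact permutation over 2 against 2 lists, and between gene sets by exact sign flips over 4 lists; linking and tests were tested on simulated data. Python 3.11.15, pandas 2.3.3 and numpy 2.4.6 were used. Members and lists were chosen with earlier results of these data known. Named genes were the group-specific members, the 6 with most regions called in all 4 lists, the 5 highest and 3 lowest in mean percentile among members in all 4 lists, and Zfp36, Zfp36l1, Zfp36l2, Zfp106 and Zfp638; any other gene was picked with its values in view. Protein features, which were planned, were not analysed here.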

Additional observations from a re-analysis of the deposited data

How the results depend on the processing

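Zfp genes exceeded other genes in peaks per gene and in score percentile, and fell below them in width, position, share of peaks in the first and last 500 bases and stretch from first to last peak, in the mean over lists under every alternative run, although by only 0.35 percentile points with the largest scores. The share of Zfp genes called in all lists was 33.6% and 21.6% when lists were cut to the 50% smallest and 50% largest scores, 58.2% over all Zfp genes with a peak, and 77.7% to 80.3% of 3 lists when a list was left out. Its difference from other genes was -2.57 points with the largest scores. Denervated-only genes numbered 6 with the smallest scores (4.58%, against 7.76% of other genes) and 9 with the largest (9.28% against 8.17%, the opposite order), 2 with equal numbers of peaks per list, 0 with names of Zfp and digits alone, and 2 to 14 when a list was left out. Innervated-only genes numbered 13 with the smallest scores and 12 to 27 when a list was left out. Denervated-only regions numbered 21 with the largest scores, 31 with reciprocal overlap and 24 to 99 when a list was left out; innervated-only regions numbered 42 with reciprocal overlap and 54 to 113. Counts without a list rise because the definition loosens. The region counts under these alternatives were made for Zfp genes alone and have no background beside them.

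At a threshold of 0.05 no difference between the groups of muscles could pass. With 2 against 2 lists the exact permutation p cannot go below 0.333, so these tests cannot decide whether the groups differ. Several differences changed sign. When a list was left out or lists were cut, the gene sets were taken anew. Denervated minus innervated Zfp genes per list was -9.5 and ran from -13.5 to 1.5 when a list was left out. For width it was 0.5 bases and ran from -24.5 to 25.0. For position it was 0.44 with the largest scores and ran from -0.76 to 0.092 without a list, against -0.41. For score percentile it was 1.58 and 1.84 with the smallest and largest scores and ran from -6.40 to 0.74 without a list, against -3.40; the cause was not tested. Paired by replicate number (replicate block), Zfp genes per list differed by -2 and -17, a mean of -9.5 (exact sign-flip p = 0.5, the smallest for 2 pairs); the labels do not say that the numbers pair the samples, and pairing leaves each mean difference as it is by construction, with exact p of 0.5 or 1. Peaks of 1 block alone were an alternative chosen after seeing the data. Depth is unknown, so an absent peak shows no absence of m6A.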
